A study of Mus musculus with 7 samples.

Results

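Enterochromaffin-like (ECL) cells, the histamine-making endocrine cells of the gastric glands, were chosen by the counts of 4 transcripts in single cells of the mouse stomach. A well was taken as an ECL well when Hdc, the gene of histidine decarboxylase, gave at least 0.05% of its unique molecular identifiers (UMIs, each standing for 1 captured transcript), the granule protein gene Chga at least 0.3%, the ghrelin gene Ghrl under 1% and the somatostatin gene Sst under 1%. Of 2235 wells kept with 1000 UMIs or more, 171 met these limits. A further 96 wells had Ghrl at 1% or more, and the 1968 others, called the remaining wells here, had less. The cells were living, DAPI-negative epithelial cells of wild-type C57BL/6 mice, sorted singly into 384-well plates and counted by CEL-seq2, which captures transcripts by their poly(A) tails. The tables comprised 4 plates labelled corpus, the acid-secreting body of the stomach, and 3 labelled pylorus, its outlet. The labels do not say which mice gave which plate, so p-values over plates measure the spread between plates, which may be technical.

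ECL cells lie in the glands of the acid-secreting mucosa. Histidine decarboxylase makes histamine, the vesicular monoamine transporter encoded by Slc18a2 loads it into granules, and the hormone gastrin, acting on the receptor encoded by Cckbr, triggers its release. The histamine reaches H2 receptors on neighbouring parietal cells and drives their acid secretion, while somatostatin restrains both cells. X/A-like cells are the ghrelin-producing endocrine cells of the same glands.

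The plates differed in ways that bear on the values below. Gast, the gastrin gene of the G cells of the antrum next to the pylorus, had 3340 UMIs in the kept wells of the plate labelled corpus 1 and 0 in each of the other 6, the plates labelled pylorus included. Whether the plate labelled corpus 1 holds corpus tissue alone is therefore in doubt. How far the plates labelled pylorus, with 0 Gast UMIs, represent the region of the G cells is in doubt as well. Every comparison of the regions below carries both limits, also where corpus 1 is left out. Atp4b, a parietal cell gene, had 294, 19.03, 2913 and 1813 UMIs per 1000000 in the kept wells of corpus 1 to 4. Pylorus 1 to 3 had 73.4, 668 and 1039, so corpus 2 lay below them all and corpus 1 below pylorus 2 and 3. In its remaining wells the parietal markers summed to 787, above pylorus 1 (346) and below pylorus 2 and 3 (1249 and 1963). How well corpus 2 represents the acid-secreting mucosa was not tested. Spike-in RNA took 4.27% of the UMIs of corpus 1 and 6.55% of those of pylorus 1, against 0.256% to 0.426% elsewhere. These 2 plates were also the shallowest: the median ECL well held 1224 UMIs in corpus 1 and 4195.5 in pylorus 1, against 8464 to 13902 in the other 5. All 9 ECL wells of corpus 1 together held 18425 UMIs, so that a single UMI there equals 54.3 counts per 1000000 UMIs (CPM), against 1.12 CPM in corpus 2. ECL wells were shallower than the remaining wells in every plate, where the medians ran from 7103 to 26508.5 UMIs.

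The ECL label was checked against 6 markers, of which Hdc and Chga chose the wells. The median ECL well held 0.402% of its UMIs as Hdc, 4.94% as Chga, 0.340% as the transporter Slc18a2, 0.317% as the granule protein Chgb, 0.121% as the matricellular growth regulator Nov and 0.0969% as the protease Pappa2. Slc18a2 reached 0.05% in 157 of the 171 wells. The other 14, of which 13 were in corpus 2 and 1 in corpus 1, had no Slc18a2 UMI. They met the limits with a median of 1 Hdc UMI and 14.5 Chga UMIs among 1221 UMIs, and the chief cell product Pgc made up a median of 37.6% of them. In corpus 2 the remaining wells held a median of 2 Hdc and 33 Chga UMIs at a median depth of 24510 UMIs. The medians of Chgb, Pappa2 and Nov in the 14 wells were 0% as well, so the markers outside the rule do not bear out the label in most of them. The share of ECL wells and the gene counts against other kept wells and between regions are also given without the 14. CPM levels and detection in ECL wells are of all 171. The split is not exact: the 1 well of corpus 1 held 0.667% Hdc and 0.751% Pgc. In corpus 2, 16 ECL wells held over 15% Pgc, of which 3 stay among the 157. The wells just inside and outside the limits held 0.0529% and 0.0470% Hdc, 0.589% and 0.227% Chga, 0.975% and 1.01% Ghrl, and 0.397% and 22.4% Sst.

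Ghrl showed no gap at its limit. Among the 250 wells that met the Hdc and Chga limits with Sst under 1%, 29 held less than 0.05% Ghrl, 18 held 0.05% to 0.1%, 39 held 0.1% to 0.2%, 50 held 0.2% to 0.5% and 35 held 0.5% to 1%, and beyond the limit 37 held 1% to 2%, 35 held 2% to 5%, 5 held 5% to 10% and 2 more than 10%. The 171 ECL wells are the lower side of this range and the 79 wells above 1% its upper side. A Ghrl UMI was seen in 97.1% of ECL wells and also in 83.3% of the remaining wells, at median depths of 10084 and 20869.5 UMIs. The median share was 0.196% in ECL wells and 0.0289% in the remaining wells. The wells above the limit took 0%, 25%, 28.1% and 21.4% of those meeting the Hdc and Chga limits in corpus 1 to 4, and 14.3%, 50% and 54.3% in pylorus 1 to 3. Ghrl also made up 0.0940% and 0.117% of the UMIs of the remaining wells in pylorus 2 and 3, against 0.00678% to 0.0402% in the other plates, and its part in those shares was not tested.

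**Figure D1:**
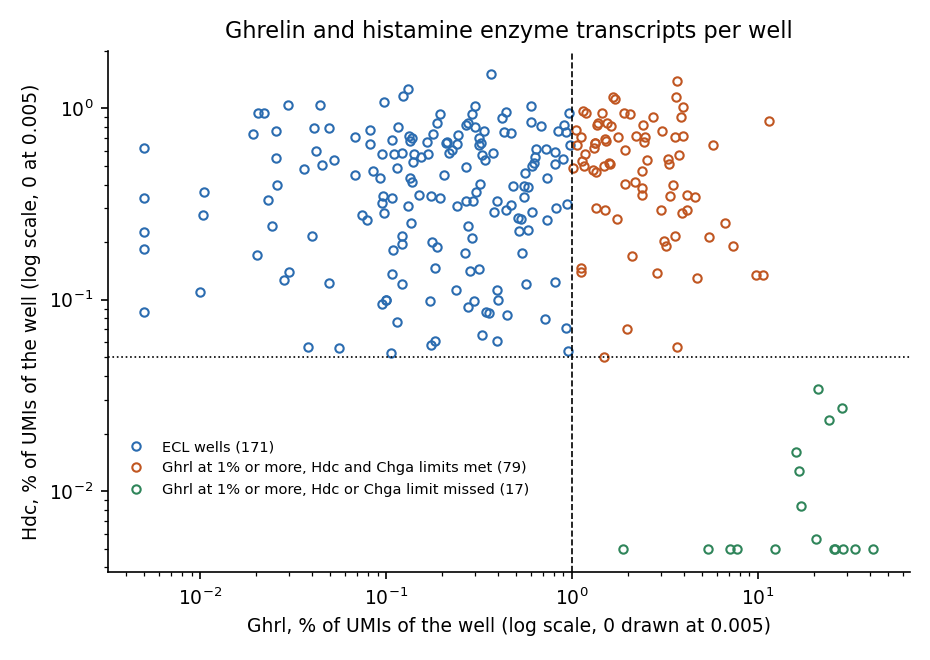
Hdc against Ghrl, each as a percentage of the UMIs of a well on a log scale (0 drawn at 0.005), for the 171 ECL wells, the 79 wells above the Ghrl limit that met the Hdc and Chga limits, and the 17 that did not; dashed and dotted lines mark the limits of 1% Ghrl and 0.05% Hdc. ECL wells and the 79 wells form 1 cloud across the dashed line. The 17 wells lie under the dotted line, at up to 0.0340% Hdc, because missing a limit set them apart.

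ECL wells were found in every plate. They made up 3.24% (95% Wilson interval 1.71 to 6.04), 24.7% (20 to 30.1), 6.37% (4.28 to 9.38) and 6.59% (4.39 to 9.77) of the kept wells of corpus 1 to 4, and 4.80% (2.77 to 8.20), 5.49% (3.58 to 8.33) and 4.34% (2.69 to 6.93) of those of pylorus 1 to 3. The intervals cover counting error only. Corpus 2 stood far above the others, and the plates of the regions overlapped. The mean share was 10.2% ± 9.79 (SD, n = 4) in corpus and 4.88% ± 0.583 (SD, n = 3) in pylorus plates, a difference of -5.35 percentage points for pylorus (p = 0.6, exact two-sided permutation test over 35 splits, smallest possible p 0.0286). Without corpus 2 the difference was -0.522 points (exact permutation p = 0.8), and with only the wells with Slc18a2 at 0.05% or more it was -4.10 (exact permutation p = 0.571). With only the 4 plates of similar depth (corpus 3 and 4, pylorus 2 and 3) it was -1.56, and the plates of the regions did not overlap (exact permutation p = 0.333, the smallest that 6 splits allow). Without corpus 1, whose label the Gast count puts in doubt, it was -7.69, again with no overlap (exact permutation p = 0.1, the smallest that 20 splits allow). The difference over all 7 plates did not pass the test, its size depended on the plates included, and a difference in how cells were recovered from the tissue cannot be told apart from one in the tissue.

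**Figure D2:**
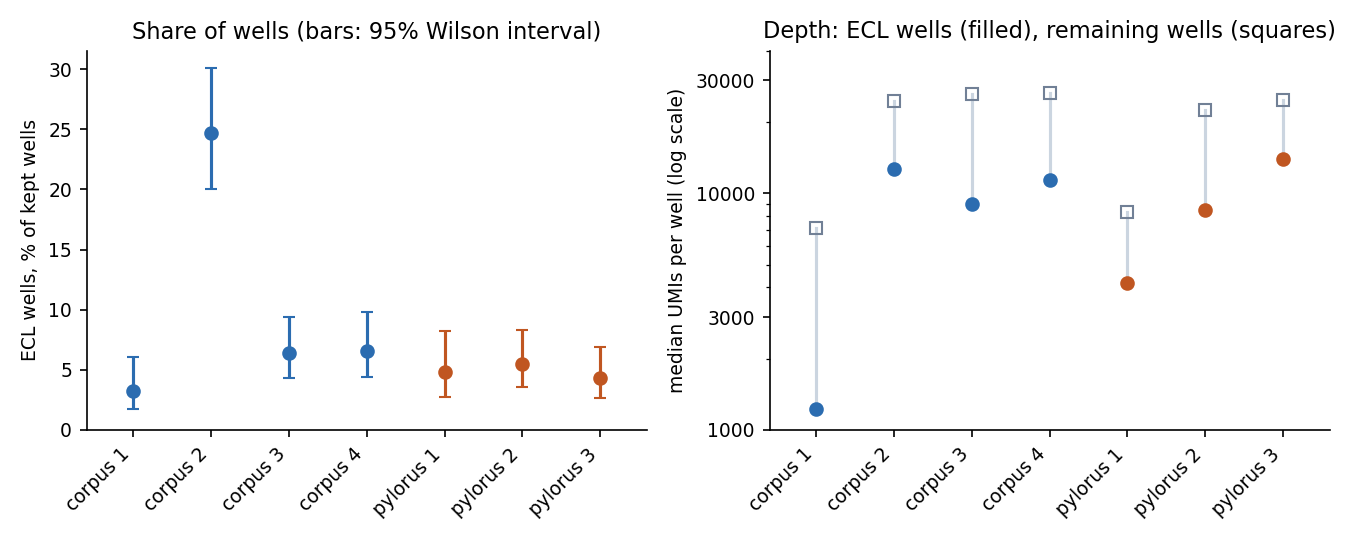
Left, ECL wells as a percentage of the kept wells of each plate with 95% Wilson intervals; right, the median UMIs of ECL wells (filled) and of the remaining wells (squares) on a log scale. Corpus 2 reaches 24.7% against 3.24% to 6.59% elsewhere, and ECL wells are shallower than the remaining wells in all 7 plates.

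Levels were compared within a plate, as CPM of the UMIs summed over its ECL wells and over the wells they were set against. Since the rule chose the wells by transcripts of the same libraries, this contrast is a description and carries no test. Against all 2064 other kept wells, 139 of 7342 genes (1.89%) were at least 4-fold higher in ECL wells in each of the 7 plates and 37 (0.504%) at least 4-fold lower. Against the 1968 remaining wells, which hold no ghrelin wells, the counts were 176 of 7349 (2.39%) and 37 (0.503%). Ratios were taken with 10 CPM added to both values, which understates the fold of low genes, and the median over all genes in the second comparison was 0.33 on the log2 scale. In corpus 1, where 1 UMI equals 54.3 CPM, a single UMI meets the 4-fold limit for a gene near 0 in the compared wells. Without the 14 wells that lacked Slc18a2 the first counts were 140 and 36. They were 38 and 25 with every well thinned to 1000 UMIs and were 242 and 80 on the 4 plates of similar depth. Values below are CPM in the ECL wells and the remaining wells, given as the lowest, the median and the highest plate.

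Genes of histamine synthesis and storage were among the highest. Hdc was at 4668, 6429, 3532 and 4692 CPM in the ECL wells of corpus 1 to 4 and at 4939, 5131 and 4602 in those of pylorus 1 to 3, against 3.0 to 113 in the remaining wells. Slc18a2 was at 3094, 3108, 3480 and 3139 CPM in corpus and 4527, 4532 and 4078 in pylorus, against 4.87 to 38.6 in the remaining wells, a median 104-fold. No plate sum of Slc18a2 in ECL wells overlapped those of the remaining wells, and Hdc had to lie higher because the rule used it. Ddc, the aromatic amino acid decarboxylase that other amine cells use, was at 197, 434 and 1575 CPM against 14.7, 20.6 and 24. Of 14 genes of amine synthesis, storage and breakdown in the tables, 7 reached 20 CPM, and these 3 were 4-fold higher in every plate (median log2 ratio of the 7, 2.31). Maob, a monoamine oxidase, was at 54.3, 74.3 and 102 CPM and higher in all 7 plates without reaching 4-fold in each. The other vesicular transporter, Slc18a1, was at 0, 26.4 and 42.9 CPM, and Hnmt, which inactivates histamine by methylation, at 0, 0 and 1.12. Tph1, the enzyme of serotonin-producing enterochromaffin cells, was at 0 in 6 plates and 4.4 CPM in pylorus 3, and Tac1, a second marker of those cells, at 0 in all.

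**Figure D3:**
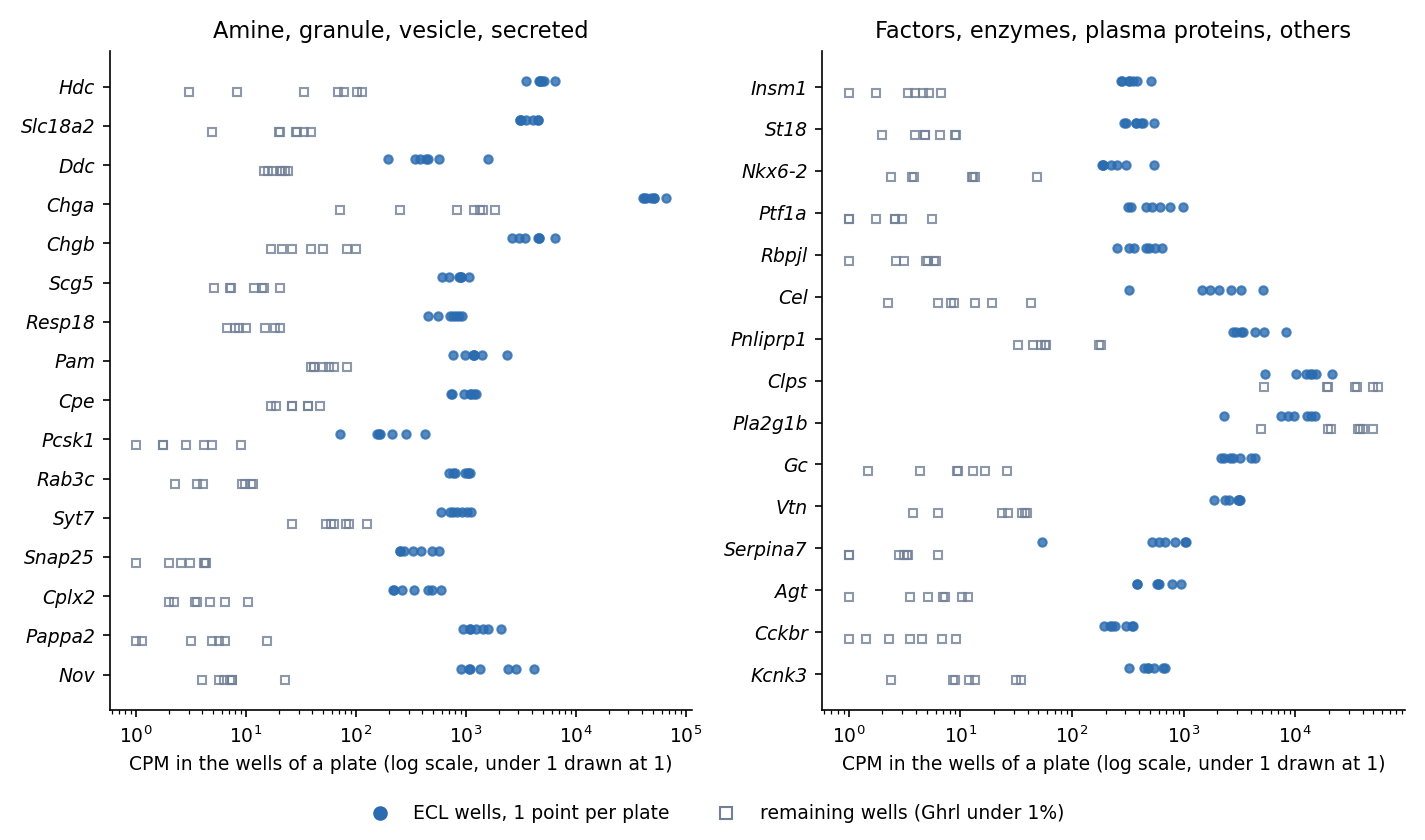
CPM of named genes in the ECL wells (filled, 1 point per plate, n = 7) and in the remaining wells (squares) on a log scale, with values under 1 drawn at 1. Clps and Pla2g1b overlap between the wells, while every other gene shown lies higher in ECL wells in all 7 plates.

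The most abundant of the genes higher in every plate encodes a granule protein. Chga, the precursor of several peptides and the main granule protein of ECL cells, was at 40923, 48496 and 65509 CPM against 70.8, 1192 and 1838. The richest ECL well held 2141 Chga UMIs. With a 6-base UMI, correction for codes used more than once would make this 3029, so the levels of Chga are understated in the richest wells. Chgb was at 2610, 4481 and 6416 CPM against 17.0, 39.0 and 99.0. Scg5, the chaperone of a prohormone convertase, was at 599, 884 and 1074 CPM against 5.15, 11.8 and 20.4. Of 12 granins and granule cargo genes, 11 reached 20 CPM and 8 were 4-fold higher in every plate (Chga, Chgb, Scg3, Scg5, Vgf, Resp18, Bex2 and Ptprn; median log2 ratio of the 11, 3.44). Chga had to be among the 8 because the rule used it, and 2.39% of all 7349 genes were 4-fold higher in every plate. Scg2, another granin, was at 0, 0 and 7.14 CPM, no higher than the 0.395, 2.74 and 12.5 of the remaining wells. The 200 bases before the start sites of the 2 chromogranin genes are shown because both hold TGACG, the core of the cAMP response element through which chromogranin transcription is known to be controlled, drawn in capitals (RefSeq, GRCm38.p6, plus strand of chr12:102554741-102554940 for Chga and of chr2:132781442-132781641 for Chgb, which holds the whole palindrome TGACGTCA).
Chga: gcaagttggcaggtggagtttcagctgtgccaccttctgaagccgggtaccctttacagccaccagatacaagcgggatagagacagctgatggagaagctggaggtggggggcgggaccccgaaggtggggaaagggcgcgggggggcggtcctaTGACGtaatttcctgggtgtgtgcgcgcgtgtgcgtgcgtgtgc
Chgb: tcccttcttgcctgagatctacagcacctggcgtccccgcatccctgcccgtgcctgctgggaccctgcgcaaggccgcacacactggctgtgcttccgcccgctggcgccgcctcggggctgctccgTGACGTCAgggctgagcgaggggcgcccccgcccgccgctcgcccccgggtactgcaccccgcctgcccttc
The match begins 44 bases before the start site in Chga and 72 in Chgb. Of the 25 genes with the largest ratios over other kept wells, 19 matched a promoter in the table, and 4 of these (Chga, Chgb, Prune2 and Scg5) held TGACG on either strand, against 15.7% of all 32851 promoters. TGACGTCA, which contains it, was found in 1 of the 19 and in 1.47% of all. A match is a run of letters and was not shown to bind a factor.

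The enzymes and the release machinery of such granules followed the same order. Pam, which amidates peptides, was at 769, 1189 and 2372 CPM against 39.2, 50.2 and 83.5. Cpe, the carboxypeptidase of prohormone processing, was at 730, 1085 and 1244 against 17.0, 26.4 and 47.1, and the convertase Pcsk1 at 71.6, 166 and 426 against 0, 2.84 and 8.95. These were the 3 of 7 processing genes above 20 CPM that were 4-fold higher in every plate. Furin, the convertase of the constitutive pathway, was lower in 6 of 7 plates (192 against 1176 CPM at the median). Of 24 genes of vesicle exocytosis, 17 reached 20 CPM and 9 were 4-fold higher in every plate (among them Snap25, Stx1a, Syp, Syt7, Rab3c, Cplx2, Cadps and Sv2a; median log2 ratio of the 17, 3.11). Rab3c, a small GTPase of secretory vesicles, was at 699, 977 and 1092 CPM against 2.25, 9.10 and 11.5. Snap25, a membrane fusion protein, was at 249, 329 and 573 CPM against 0.877, 3.08 and 4.34. The calcium sensor Syt7 was at 597, 823 and 1120 against 26.2, 63.6 and 127.

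Among the receptors that are known to control ECL cells, Cckbr, the gastrin receptor, stood out. It was at 217, 355, 192 and 229 CPM in corpus 1 to 4 and 304, 240 and 343 in pylorus 1 to 3, against 0.749 to 9.18 in the remaining wells. With every well thinned to 1000 UMIs, a Cckbr UMI was found in 21.1% of ECL wells and 0.305% of the remaining wells, and with all UMIs in 79.5% and 6.61%. It was the only one of the 5 receptor genes above 20 CPM, of 23 in the tables, that was 4-fold higher in every plate. The related Cckar overlapped the remaining wells (119, 297 and 543 CPM against 30.0, 195 and 446). Vipr1, a receptor for vasoactive intestinal peptide, was at 17.9, 50 and 56.3 CPM against 0, 0.776 and 1.30. The PACAP receptor Adcyap1r1 (0, 0 and 4.37 CPM) and the somatostatin receptor Sstr2 (0, 5.12 and 17.9) were near the limit of detection at this depth. Of 24 ion channel genes, 17 reached 20 CPM and 7 were 4-fold higher in every plate (among them Scn3a, Kcnh2, Abcc8, Kcnk3 and Gria2). Kcnh2 and Gria2 were each at 54.3 CPM in corpus 1, which is 1 UMI there. The acid-sensitive potassium channel gene Kcnk3 was at 326, 483 and 685 CPM against 2.37, 12 and 35.2. Abcc8, the regulatory subunit of the ATP-sensitive potassium channel, was at 71.6, 119 and 166 against 1.06, 2.07 and 5.6.

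Of the secreted growth factors and matrix regulators, 7 of 20 reached 20 CPM and 2 were 4-fold higher in every plate. Pappa2, a protease that cuts binding proteins of insulin-like growth factors, was at 940, 1232 and 2095 CPM against 0.790, 4.85 and 15.4. Nov was at 4179, 2390, 892 and 1089 CPM in corpus 1 to 4 and 2863, 1059 and 1337 in pylorus 1 to 3, and it was highest in the 2 plates with most spike-in RNA. Both belong to the 6 markers. Vegfa was higher in all 7 plates at a median 3.65-fold. Of 12 imprinted genes, 5 reached 20 CPM, and Meg3 (447, 813 and 1553 CPM against 4.34, 14.0 and 70.7) and Peg3 (143, 343 and 463 against 1.54, 3.36 and 9.62) were 4-fold higher in every plate.

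Of 25 endocrine transcription factors in the tables, 14 reached 20 CPM and 4 were 4-fold higher in every plate (median log2 ratio of the 14, 1.72). Insm1, a zinc finger factor of endocrine cells, was at 275, 326 and 506 CPM against 0.768, 3.95 and 6.71. St18 was at 290, 376 and 548 against 1.97, 4.87 and 9.22 and the homeobox factor Nkx6-2 at 185, 221 and 543 against 2.37, 12.8 and 48.3. Pax6, Nkx2-2, Nkx6-1 and Lmx1a had no UMI in the ECL wells, Neurod1 was at 0, 0 and 3.57 CPM and Isl1 at 0, 4.37 and 54.3.

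Transcripts best known from the pancreas and the liver were among the highest in ECL wells. Lists of pancreatic acinar factors, acinar enzymes and plasma proteins were drawn up after these genes had been seen, so their counts describe and support nothing. Ptf1a, the factor that specifies pancreatic acinar cells, was at 760, 520, 319 and 464 CPM in corpus 1 to 4 and 984, 614 and 339 in pylorus 1 to 3, against 0.790 to 5.6 in the remaining wells. Rbpjl, its acinar partner protein, was at 326, 358, 490 and 461 CPM in corpus and 251, 558 and 647 in pylorus, against 0.749 to 6.04. In these plate sums neither gene overlapped the remaining wells, but single wells did. The highest share in a remaining well was 0.513% for Ptf1a and 0.136% for Rbpjl, against 0.345% and 0.223% in an ECL well. Thinned to 1000 UMIs, 35.1% of ECL wells held Ptf1a and 36.3% Rbpjl, against 0.254% and 0.457% of the remaining wells.

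Cel, the bile salt-stimulated lipase of acinar cells, was at 326, 5162, 2636 and 3246 CPM in the ECL wells of corpus 1 to 4 and 1467, 2067 and 1707 in those of pylorus 1 to 3. The remaining wells held 2.25, 8.69 and 42.7 CPM. Pnliprp1, a relative of pancreatic lipase, was at 2742, 3379 and 8268 CPM against 33.0, 57.5 and 180, and was highest in corpus 2. A further 6 acinar genes (Pnlip, Cpa1, Cpb1, Ctrl, Prss2 and Sycn) had no UMI in the ECL wells. Clps, the colipase gene (5373, 13665 and 21154 CPM against 5219, 34546 and 55368), and Pla2g1b, a secreted phospholipase (2280, 9701 and 14883 against 4910, 36106 and 49365), had more in the remaining wells at the median. So 2 of 7 acinar factors and 2 of 8 acinar enzymes above 20 CPM were 4-fold higher in every plate.

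In the pancreas Ptf1a and Rbpjl act together, and Rbpjl recognises the sequence TTCCCA. The 200 bases before the start sites of the 4 genes are shown for that reason, with TTCCCA, which reads TGGGAA where it lies on the other strand, in capitals (RefSeq, GRCm38.p6; Ptf1a chr2:19445463-19445662, Rbpjl chr2:164402994-164403193 and Pnliprp1 chr19:58728687-58728886 on the plus strand, Cel chr2:28563404-28563603 on the minus strand).
Ptf1a: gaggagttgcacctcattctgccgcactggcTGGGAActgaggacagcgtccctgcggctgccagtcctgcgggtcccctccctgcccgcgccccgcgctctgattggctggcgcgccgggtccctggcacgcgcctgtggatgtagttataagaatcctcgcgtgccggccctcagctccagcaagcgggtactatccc
Rbpjl: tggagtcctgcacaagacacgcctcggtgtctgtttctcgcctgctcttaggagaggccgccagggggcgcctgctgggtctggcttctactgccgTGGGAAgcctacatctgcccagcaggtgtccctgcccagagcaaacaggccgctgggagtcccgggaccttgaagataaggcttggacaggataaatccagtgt
Cel: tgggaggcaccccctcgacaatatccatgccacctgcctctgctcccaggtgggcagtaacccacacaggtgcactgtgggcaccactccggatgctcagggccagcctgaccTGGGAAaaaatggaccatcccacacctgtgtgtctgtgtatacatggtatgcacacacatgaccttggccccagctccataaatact
Pnliprp1: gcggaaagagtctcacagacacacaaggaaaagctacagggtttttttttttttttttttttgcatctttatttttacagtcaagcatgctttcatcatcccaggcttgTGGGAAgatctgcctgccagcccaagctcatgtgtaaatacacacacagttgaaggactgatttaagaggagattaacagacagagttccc
The matches begin 169, 104, 87 and 91 bases before the start sites in this order. TTCCCA on either strand was found in 8 of the 19 matched promoters of the 25 leading genes and in 17.3% of all 32851. The 8 were Gc, Cel, Rab3c, Scg5, Ptf1a, Rbpjl, Pnmal2 and Pnliprp1. They include the 4 genes shown, for which the motif was chosen, so these counts do not measure an enrichment. CAGCTG, an E-box of the kind bound by factors of the family of Ptf1a, was found in 5 of the 19 (Slc18a2, Rab3c, Chga, Prune2 and Pnmal2), none of them among the 4 genes shown, and in 10.9% of all. The motifs were chosen after the genes had been seen, and the windows carry no measurement of binding.

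Plasma proteins known as products of the liver were as high. Gc, the vitamin D-binding protein, was at 2164, 2785 and 4342 CPM in ECL wells against 1.5, 9.58 and 26.4, a median 137-fold, the largest ratio to the remaining wells among genes of at least 100 CPM. Vtn, vitronectin, was at 1861, 3039 and 3176 CPM against 3.75, 26.5 and 39.4. Serpina7, the thyroxine-binding globulin, was at 54.3, 675 and 1044 CPM, the lowest value being 1 UMI in corpus 1, and Agt, angiotensinogen, at 380, 586 and 948. These were 4 of the 12 plasma protein genes above 20 CPM. Ahsg, fetuin-A, reached 760 CPM at the median but had no UMI in the ECL wells of pylorus 1, where a count of 0 allows up to 53.7 CPM. Serpina1c, Fgb, Fga and Kng1 had no UMI in the ECL wells. With wells thinned to 1000 UMIs, Gc was found in 84.2% of ECL and 1.02% of the remaining wells, and Vtn in 80.7% and 3.15%.

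The 25 genes of at least 100 CPM with the largest ratio to all other kept wells were, in order, Slc18a2, Gc, Cel, Hdc, Vtn, Serpina7, Pappa2, Rab3c, Chga, Prune2, Chgb, Nov, Nrp1, Lhfpl5, Scg5, Ptf1a, Rbpjl, Ncam1, Syt5, Pnmal2, Insrr, Pnliprp1, Agt, Insm1 and Disp2, with median ratios from 39.2-fold to 18.2-fold. Of these, 22 were also among the 25 largest against the remaining wells. Insrr, a receptor of the insulin receptor family that senses alkaline pH, was at 382, 552 and 1031 CPM against 2.25, 5.67 and 11.6. The tetraspan gene Lhfpl5 was at 307, 432 and 597 against 0.749, 2.08 and 3.10. Nrp1, a co-receptor of semaphorins and vascular growth factors, was at 271, 493 and 665 against 1.18, 2.71 and 5.21.

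The genes lowest in ECL wells included products of mucous and parietal cells. The 10 with the most negative ratio to other kept wells were Sult1c2, Cyp2c65, Agr2, Gsdma2, Muc5ac, Atp4a, Papss2, Gif, Gsta4 and Ern2, at median ratios from 14.0-fold to 10.9-fold lower. Muc5ac, the mucin of surface pit cells, was at 5.6, 35 and 163 CPM against 269, 810 and 2064. Atp4a, the acid pump of parietal cells, was at 0, 41.4 and 78.7 CPM against 155, 478 and 1049. Markers of other types were not absent from ECL wells. The 5 chief cell markers summed to 17042 to 66657 CPM in ECL wells and to 41821 to 160024 in the remaining wells. Pgc, the most abundant of them, was at 15685, 54626 and 64700 CPM against 36844, 83974 and 121002. An ECL well held up to 4058 Pgc UMIs, so that repeated UMI codes lower its level most. The 4 pit markers summed to 1795 to 19322 CPM against 18193 to 82985. What part of these levels came from RNA of other cells was not tested.

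Mast cells also express Hdc. Their 10 markers summed to 17.9 to 162 CPM in ECL wells and 12.1 to 1266 in the remaining wells, and the mast cell carboxypeptidase Cpa3 was at 0 to 17.5 CPM in ECL wells. Of 8 mast genes above 20 CPM, 0 were 4-fold higher in every plate. Genes of the dissociation stress list were 4-fold higher in every plate in 0 of 15, while 8 of the 15 were higher and 3 lower in all 7 plates. Of all 7349 genes, 1529 were higher and 933 lower in all 7. On the stress list, the immediate early genes Fos (743, 1049 and 1954 CPM against 185, 310 and 560), Egr1 (354, 750 and 1574 against 78.0, 149 and 454) and Junb (350, 620 and 1140 against 137, 205 and 236) were each higher in all 7 plates. Of the peptide hormones above 20 CPM (Ghrl, Sst and Gast), 0 of 3 were 4-fold higher in every plate, and Sst was at 4.4, 189 and 543 CPM in ECL wells against 2.25, 1205 and 1767. The limits of 1% cap Ghrl and Sst in ECL wells, so both levels are limited by the rule. The 5 tuft cell markers summed to 0 to 35.2 CPM against 61.8 to 308, and the 5 immune markers to 0 to 17.9 against 14.1 to 47.9. The 4 proliferation markers summed to 11.2 to 109 CPM against 112 to 736.

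Few genes separated ECL wells from all wells with Ghrl at 1% or more. In the 5 plates with at least 5 wells of each kind (corpus 2, 3 and 4, pylorus 2 and 3), 0 of 6835 genes were at least 4-fold higher in ECL wells in every plate, and 1 (0.0146%), Ghrl itself, was at least 4-fold lower, at a median 14.6-fold, a difference set by the rule. Among genes of at least 100 CPM, the 15 highest in ECL wells differed by 1.73-fold (Cpsf6) to 1.36-fold (Rbbp7) at the median. They included Homer2, a scaffold protein (1.62-fold), Prkcb, a protein kinase C (1.5-fold), and Rbpjl (1.45-fold). After Ghrl, the lowest were Ceacam10, an adhesion protein gene (10-fold), the fatty acid-activating enzyme gene Acsl1 (4.91-fold) and the retinol-binding protein gene Rbp4 (2.88-fold). The other 11, B2m, Maged2, Cpb2, Gng4, Vgf, Emb, Ptbp1, Krtcap2, Tm4sf4, Lgals9 and Pcsk1, differed by 1.97-fold to 1.37-fold. The median shares of Ceacam10, Acsl1 and Rbp4 were 0% in ECL wells. They were 0%, 0.00291% and 0.00819% in the 79 ghrelin wells that met the Hdc and Chga limits. In the 17 that missed a limit they were 0.237%, 0.0908% and 0.0958%. With wells thinned to 1000 UMIs the ratios of Cadps, Dtx3, Rbbp7 and Pcsk1, all under 1.5-fold, changed sign. Without corpus 4, which held 0 of the 17 wells, the count of genes at least 4-fold lower was 4.

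The 96 ghrelin wells were of 2 kinds. In 79, the Hdc and Chga limits were met as well: the median well held 2.19% Ghrl, 0.531% Hdc and 0.371% Slc18a2, and Ptf1a was found in 89.9% of them, against 81.3% of ECL wells at a lower median depth (10084 against 14504 UMIs). These wells differed from ECL wells by at least 4-fold in every plate in Ghrl alone, 1 of 6842 genes, and it is the gene that divides them by the rule. The other 17 missed a limit, and held a median of 20.6% Ghrl, 0% Hdc, 0.0272% Slc18a2 and 0.769% Chga. Ptf1a was found in 0 of the 17, Rbpjl in 2 and Pappa2 in 3, at a median depth of 10044 UMIs, similar to that of ECL wells.

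Over the 4 plates with at least 3 of these 17 wells (corpus 1 and 2, pylorus 2 and 3), 44 of 7506 genes (0.586%) were 4-fold higher in ECL wells in every plate and 13 (0.173%) 4-fold lower. In corpus 1 the 3 such wells held only 3205, 1170 and 1372 UMIs, so that single UMIs weigh heavily in its ratios. The well of 1170 UMIs held 1.88% Ghrl, 0% Hdc and 0.0855% Chga. Higher were, among the genes named here, Hdc, Chga, Pappa2, Nov, Gc, Vtn, Serpina7, Agt, Ahsg, Cel, Pnliprp1, Ptf1a, Lhfpl5, Prune2, Kcnk3, Vgf, Vipr1, Homer2 and Prkcb. Pnliprp1 was at 0, 49.9, 569.5 and 0 CPM in the 17 wells of these plates, in that order, against 5210, 8268, 2742 and 2926 in ECL wells. Hdc and Chga had to be higher, since the 17 wells were set apart by missing a limit on them. Lower were Ghrl, Ceacam10, Acsl1, Isl1, Neurod1, Pcsk1n and Scg2. Mboat4, the enzyme that acylates ghrelin, did not separate the wells: it was at 131, 207 and 358 CPM in ECL wells over the 7 plates, and ECL wells held a median 0.889 times the level of the 17. St18 (1.21 times), Scg5 (0.988 times) and Ncam1 (1.10 times) were likewise close, over plates with few such wells and with no test.

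**Figure D4:**
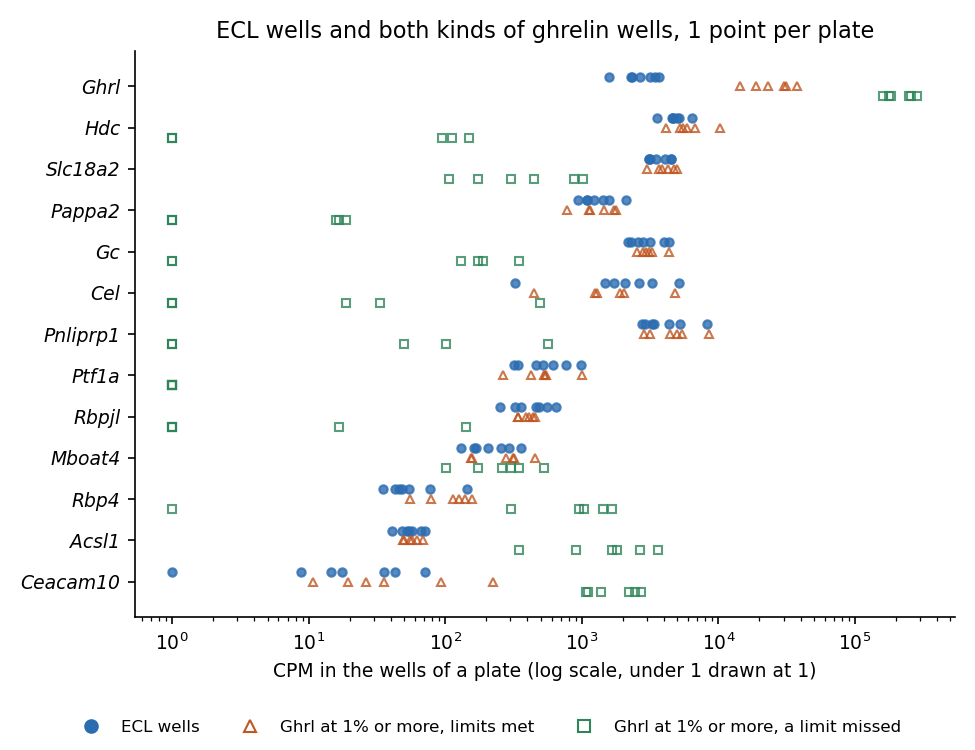
CPM of named genes in ECL wells, in ghrelin wells that met the Hdc and Chga limits and in those that missed one (1 point per plate with such wells, log scale, values under 1 drawn at 1). The first 2 kinds overlap in all genes shown but Ghrl, and the third is low in Hdc, Pappa2, Ptf1a and Pnliprp1 and high in Ghrl, Acsl1 and Ceacam10.

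Among ECL wells, variation was described in the 133 that held at least 5000 UMIs, each thinned to 5000. Leaving out the 4 genes of the rule, of which Chga had a variance over mean of 29.2, the 10 genes of at least 200 CPM with the largest variance over mean were Rn45s, Pgc, mt-Rnr2, Clps, Pnliprp1, mt-Rnr1, Cel, Tff1, Mir5109 and Malat1. Of these, 3 are ribosomal RNA genes, Pgc and Tff1 were higher in the remaining wells of all 7 plates, and Clps in those of 5. The wells were pooled over plates, whose means differed. Tff1 had a mean of 4.09 UMIs of 5000 in corpus 2 and 34.0 to 53.0 in the other 4 plates with more than 3 such wells, Rn45s 126 in corpus 2 and 271 to 717 in those 4, and mt-Rnr2 127 to 237 over the 5. Cel and Pnliprp1 varied from 0 to 78 and from 0 to 144 UMIs of 5000, with means of 27.0 and 39.4 in corpus 2 against 10.8 to 16.9 and 14.3 to 19.1 in those 4 plates. The counts of both correlated across wells (Spearman 0.48 over 133 wells, 0.25 to 0.50 within the 5 plates).

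Hdc itself ran from 3 to 75 UMIs of 5000. Over the 133 wells it correlated most with Pappa2 (Spearman 0.61), Chgb (0.57), the amidating enzyme Pam (0.55), Agt (0.53) and the phospholipase family gene Pld3 (0.51). Within the 5 plates the values ran from 0.27 to 0.88 for Pappa2 and from 0.43 to 0.82 for Chgb. The most negative were Anpep, an aminopeptidase (-0.45, -0.63 to -0.43 within plates), Rbpjl (-0.40, -0.64 to -0.09), Pgc (-0.38), Tff1 (-0.35) and Camk2n1 (-0.35). Slc18a2 (0.13), Ptf1a (0.07) and Ghrl (0.08) were close to 0. Wells rich in Hdc thus tended to be rich in Pappa2 and Chgb and poor in Rbpjl. Counts of Rbpjl were near the floor, with a median of 2 UMIs of 5000 and a UMI in 104 of the 133 wells. Over all 1916 kept wells of 5000 UMIs or more, the genes most like Hdc were Rab3c (0.60), Lhfpl5 (0.60), Pappa2 (0.58), Gc (0.57) and Prune2 (0.57). Wells of 1 plate share a library, and the counts of a thinned well share its total, so these values are descriptions with no test.

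**Figure D5:**
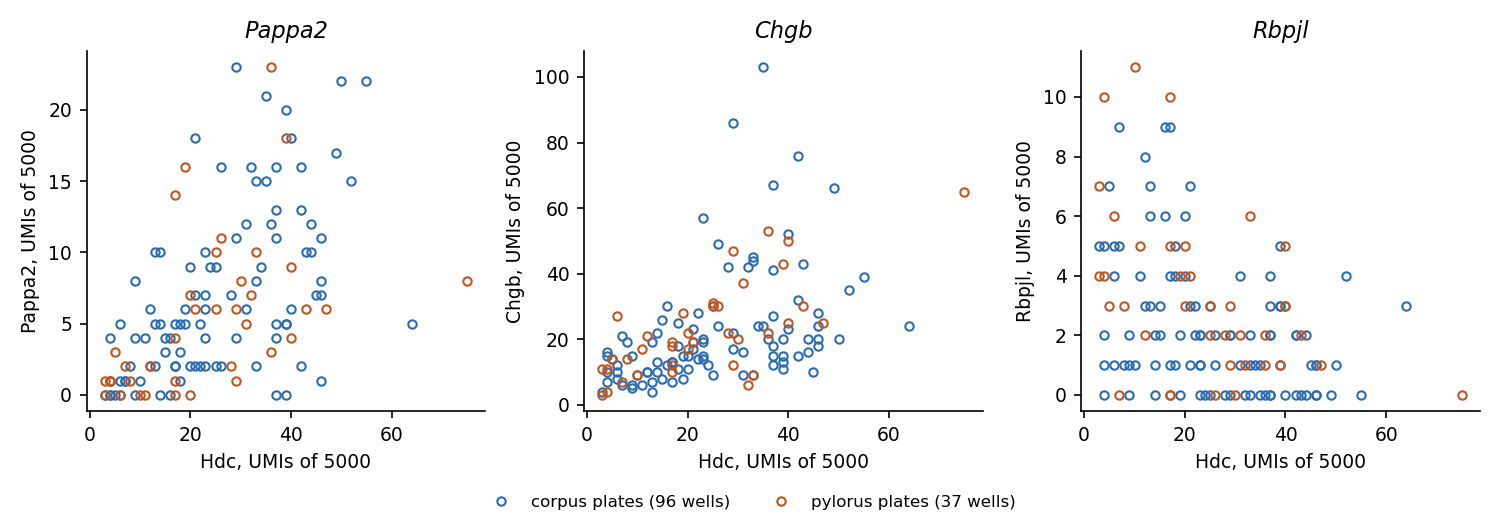
UMIs of Pappa2, Chgb and Rbpjl against those of Hdc in the 133 ECL wells with at least 5000 UMIs, each thinned to 5000, coloured by the region of the plate. Pappa2 and Chgb are higher in wells with more Hdc (Spearman 0.61 and 0.57), and Rbpjl, at a median of 2 UMIs, is lower (-0.40).

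The region was not used by the rule, so ECL wells of corpus and pylorus plates were compared by limma on log2 CPM of their sums per plate (n = 4 and 3). Of 4148 genes tested, 0 (0%) passed a Benjamini-Hochberg adjusted p under 0.05 in either direction. The smallest adjusted p was 0.926, 62 genes had an unadjusted p under 0.05, and limma's voom weights gave 0 calls and 212 such genes. Without the 14 wells that lacked Slc18a2, 0 passed and 58 had such a p. For 243 genes (5.86%) the plates of the regions did not overlap. The spread between plates was wide, with the sums of corpus 1 and pylorus 1 at 18425 and 55885 UMIs against 195490 to 892930 in the others.

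The differences in Cckbr and Ptf1a were smaller than their standard errors, at 0.21 ± 0.29 (log2, SE) for Cckbr and 0.19 ± 0.32 for Ptf1a in pylorus. Slc18a2 did not overlap between the regions (3094 to 3480 CPM in corpus, 4078 to 4532 in pylorus), and neither did Rab3c (699 to 977 against 1038 to 1092), yet their differences of 0.38 ± 0.25 and 0.33 ± 0.23 did not pass (adjusted p = 0.926 for both by limma). Both belong to the 5.86% of all genes tested whose plates did not overlap between the regions. The 3 genes with the smallest p, none of which passed, were Id1, Nnat and Lrrn3. Id1, an inhibitor of differentiation induced by bone morphogenetic proteins, was at 54.3, 19, 39.3 and 39.3 CPM in corpus 1 to 4 and 197, 118 and 101 in pylorus 1 to 3 (difference 1.77 ± 0.43, adjusted p = 0.926 by limma). Nnat, the imprinted gene of neuronatin, was at 1628, 114, 171 and 89.3 CPM in corpus and 35.8, 25.6 and 13.2 in pylorus (difference -3.28 ± 0.82, adjusted p = 0.926 by limma). Lrrn3 was at 163, 129, 87.4 and 125 CPM in corpus and 394, 205 and 233 in pylorus (difference 1.03 ± 0.26).

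With only the 4 plates of similar depth (corpus 3 and 4, pylorus 2 and 3), 5 genes passed in limma. Fst, the activin antagonist follistatin, was higher in pylorus (30.6 and 100 CPM against 286 and 317; adjusted p = 0.0181), but corpus 2, left out here, held 774 CPM. Nnat (adjusted p = 0.0222), Cckar (0.0181), the acid pump subunit Atp4b (0.0165) and Lars2 (0.0433) were higher in corpus. Atp4b, a parietal cell gene, was also higher in the remaining wells of these corpus plates (3012 and 1881 CPM against 708 and 1099), and its part in the ECL value was not tested. Over all kept wells, corpus 1 and 2, left out here, held 294 and 19.03 CPM of Atp4b. These calls come from 2 plates a region, chosen for their depth, and 0 genes passed with all 7 plates or without corpus 1 alone (124 with an unadjusted p under 0.05).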

How the data were processed

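Transcripts of single mouse stomach cells were counted on 7 plates of 384 wells, 2688 wells in all. The authors deposited raw UMI counts per gene and well, 1 table per plate, with spike-in RNA listed among the genes. The submitters' processing notes name mm9 as the genome build. For the aligner and the counter, nothing was given in the sources used here. Genes carry the tables' names, near-identical genes may share counts, and promoter sequences were matched by symbol to RefSeq on GRCm38.p6, a later build.

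Wells with 1000 UMIs or more besides spike-ins were kept. Doublets were not called, each well having been filled by sorting. All 384 well numbers occur on every plate, and 0 of the 2235 kept wells had identical counts. A plate held 2646492 to 9511078 UMIs. UMIs of a plate were summed over its ECL wells and over each compared set and given as CPM. Genes were described where the mean over plates reached 20 CPM in either set, in plates with 5 wells of both kinds (3 for the 17 ghrelin wells that missed a limit). Because the counts could not be read by the check of units, limma 3.58.1 in R 4.3.3 took the place of count models. It used TMM scaling, a trended prior and a pseudocount of 2 CPM. Genes entered limma with at least 15 UMIs in all and a least CPM in as many plates as the smaller region had. That CPM equals 10 UMIs in a plate of median sum. The code was tested on simulated data. Shares were compared by exact permutation tests (scipy 1.17.1, Python 3.11.15, numpy 2.4.6, pandas 2.3.3, matplotlib 3.10.9). Alternatives changed depth, limits, pseudocount, filter, scaling, weights and plates.

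The members and lists were chosen with earlier results of these data known. Named were the genes of the rule, the 6 markers and up to 6 abundant members of a list. Added to these were the 25 highest and 10 lowest genes against other wells, 15 each way against ghrelin wells, the 3 smallest p between regions, the 10 most variable genes and the 5 most like Hdc. List members at or near 0, the 5 most negative correlations, and Fst, Cckar, Atp4b and Lars2 between regions were named after their values were seen. Results of some list members are not reported here.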

Additional observations from a re-analysis of the deposited data

Results flagged for a closer look

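In 31 groups of 4 corpus plates checked for a plate far from the others (gap to the nearest plate over the whole range, Dixon's 95% limit), 3 exceeded the limit (9.68%). Chance gives about 1 in 20 groups. The ECL share of corpus 2 was 24.7% of kept wells, against 3.24% to 6.59% in the other 3 corpus plates. Nnat was at 1628 CPM in the ECL wells of corpus 1, where 1 UMI equals 54.3 CPM, against 89.3 to 171 in the others. Slc18a2 was at 3480 CPM in corpus 3, against 3094 to 3139 in the others.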

How the results depend on the processing

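Against other kept wells, 176 genes were 4-fold apart in every plate in either direction. This became 84 with the mean of single wells, 63 with wells thinned to 1000 UMIs, 47 with 50 CPM added and 322 on the 4 plates of similar depth, and leaving out 1 plate gave 179 to 221. Fewer plates have to meet the fold in the last cases. Against wells with Ghrl at 1% or more, the count of 1 became 2 with thinned wells, 1 to 4 when 1 plate was left out (4 without corpus 4, all lower in ECL wells) and 57 against the 17 wells that missed a limit. Of 525 values of single genes against other kept wells, 487 moved by less than the spread between plates, 38 moved by more and 0 changed sign. Of 420 against ghrelin wells, 372 moved by less, 39 by more, and 9 changed sign: with wells thinned to 1000 UMIs Cadps (-0.23), Dtx3 (-0.18), Rbbp7 (-0.64) and Pcsk1 (0.0596), against ghrelin wells that met the limits Cpb2 (0.0039), and against those that missed one Dtx3 (-0.13), Hnrnph1 (-0.42), Vgf (2.76) and Lgals9 (0.24), all log2. The cause was not tested.

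The share difference between the regions kept its sign under all alternatives run, from -7.69 to -0.522 points with 1 plate left out. In limma, 0 genes passed with all 7 plates under every alternative and with each plate left out in turn, and 5 passed on the 4 plates of similar depth. The replicate block on the 3 shared replicate numbers gave 0 genes (51 at an unadjusted p under 0.05) and a share difference of -6.57 (exact permutation p = 0.5). Deviations of same-numbered plates correlated at 0.098, 0.0016 and 0.141, and those of plates with different numbers at -0.160 to 0.113. These values cannot decide whether same-numbered plates share a mouse or a batch, which the labels do not give. The pairing was therefore not used in the main comparisons. The alternatives on Slc18a2, on the other sets of Ghrl wells and, between regions, 50 CPM were chosen after seeing the data. Depth limits most what corpus 1 can show, where a gene at 0 could still be at 163 CPM.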
